A study of Arabidopsis thaliana with 4 samples.

Results

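Iron homeostasis in Arabidopsis thaliana was followed through 5 genes, BHLH101, PYE, AT3G13610, AT1G47400 and AT4G36700, out of 13356 genes with a probe set of their own. Each is the single gene annotated to 1 probe set, and all 5 probe sets were measured on all 4 arrays. The genes were chosen by their values on these same arrays, namely how far wild type replicate 1 lay from the other 3 arrays and how far the genotypes differed, so those differences are given as a description, with no test. Samples were whole seedlings, 10 days old, of accession Col-0, grown on half-strength MS medium in long days without further treatment, with 2 arrays for each genotype, wild type and OsRR6ox. OsRR6ox plants over-express OsRR6, a rice response regulator. The promoter that drives the transgene, whether 1 or several transgenic lines were used and how many seedlings made up a sample are not stated in the sources used here. Each array is labelled as a separate biological replicate, but whether the replicates came from separate sowings is not stated either. Values are log2 expression levels as the authors deposited them, and a difference of 1 is a 2-fold change.

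Arabidopsis plants that lack iron acidify the soil around the root, reduce ferric iron at the root surface and take it up through a metal transporter. This set of steps is known as strategy I. In Arabidopsis a cascade of bHLH transcription factors switches on these steps. BHLH101 belongs to the subgroup Ib factors of that cascade, whose genes are strongly induced when iron runs short, and PYE (POPEYE) is a bHLH factor that represses iron storage and transport genes in the root vasculature. IRON MAN peptides, of which AT1G47400 encodes 1, are short iron-binding peptides that raise the deficiency response. AT3G13610 encodes F6'H1, feruloyl-CoA 6'-hydroxylase, which makes the precursor of the coumarins that roots release to mobilise iron. AT4G36700 is known in the tables used here by its locus code alone.

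Among the 5 genes 2 patterns were seen. In the first, 4 genes (BHLH101, PYE, AT1G47400 and AT4G36700) were at least 1.27 lower on wild type replicate 1 than on any other array, while the other 3 arrays lay within a range of 0.0041 for PYE, 0.23 for AT1G47400, 0.95 for BHLH101 and 1.37 for AT4G36700. In the second, AT3G13610 was below both wild type arrays in each OsRR6ox sample. The genotypes of BHLH101 and AT4G36700 did not overlap either. Wild type replicate 2 lay below the lower OsRR6ox array by 0.09 for BHLH101 and 0.24 for AT4G36700. A value among the lowest 25% of an array, a line between 4.41 and 4.52, was counted as array background. Only AT4G36700 on wild type replicate 1 lay under it.

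BHLH101 read 5.19 and 9.47 in wild type seedlings, against 9.56 and 10.41 in OsRR6ox. Wild type replicate 2 thus lay within 0.10 of the lower OsRR6ox array, while wild type replicate 1 stood alone. Wild type replicate 1 was 4.62 below the mean of the other 3 arrays, which averaged 9.81 ± 0.52 (SD, n = 3), or 24.6-fold lower. The genotype means were 7.33 ± 3.02 in the wild type and 9.99 ± 0.60 in OsRR6ox (SD, n = 2 each), a difference of 2.66, against 0.52 when wild type replicate 1 was left out. The wild type SD exceeded the difference.

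PYE read 6.71 and 7.98 in wild type seedlings, against 7.99 and 7.98 in OsRR6ox. The 3 arrays other than wild type replicate 1 spanned 0.0041, and wild type replicate 1 was 1.27 below them, or 2.42-fold lower. The genotypes overlapped, since wild type replicate 2 fell between the OsRR6ox arrays. The genotype difference was 0.64, with a wild type SD of 0.90 and an OsRR6ox SD of 0.0029 (n = 2 each), and it was 0.0019 without wild type replicate 1.

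AT1G47400, the IRON MAN gene, read 7.57 and 11.15 in wild type seedlings, against 11.00 and 11.23 in OsRR6ox. Again wild type replicate 2 lay between the OsRR6ox arrays and wild type replicate 1 far below. That array was 3.56 below the others, which averaged 11.13 ± 0.12 (SD, n = 3), or 11.8-fold lower. The genotype difference of 1.76 became -0.04 without wild type replicate 1. In the reference table the gene AT1G47395 lies next to AT1G47400. It had no probe set of its own here, and whether its transcripts also bind this probe set was not tested.

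AT4G36700 read 4.27 and 7.95 in wild type seedlings, against 8.20 and 9.32 in OsRR6ox. Wild type replicate 1 was 4.22 below the mean of the other arrays, 8.49 ± 0.73 (SD, n = 3), an 18.6-fold difference that is a lower bound because that array lay at background. This was the member that varied most among the other arrays, over 1.37, and its OsRR6ox replicates alone differed by 1.13. The genotype difference was 2.65, and 0.81 without wild type replicate 1, which lies within that gap between the OsRR6ox replicates.

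**Figure D1:**
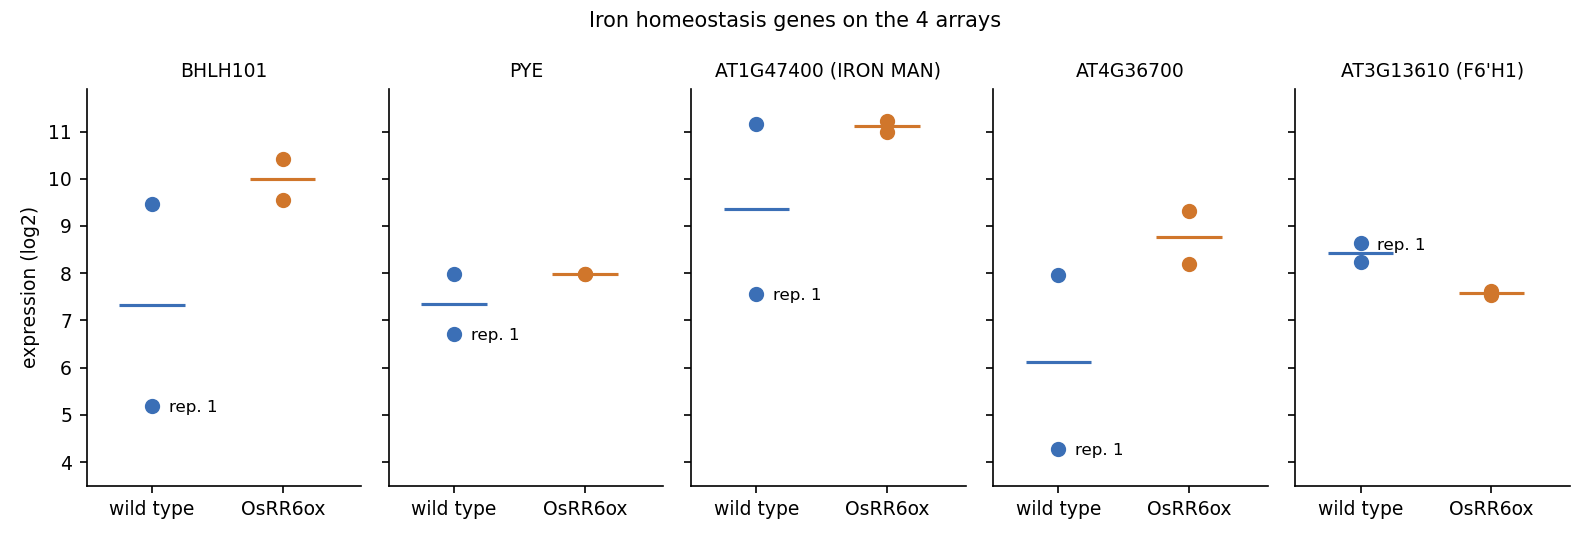
Expression (log2, vertical axis) of the 5 genes on each array, with wild type arrays in blue and OsRR6ox arrays in orange. Points are single arrays, horizontal lines are means of 2, and wild type replicate 1 is marked. It is the low point for BHLH101 (5.19), PYE (6.71), AT1G47400 (7.57) and AT4G36700 (4.27), whereas AT3G13610 is lower on both OsRR6ox arrays.

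AT3G13610, the F6'H1 gene of coumarin synthesis, read 8.63 and 8.23 in wild type seedlings, against 7.54 and 7.63 in OsRR6ox. The genotypes did not overlap and were 0.61 apart at their nearest arrays, more than the 0.40 between the wild type replicates and the 0.09 between the OsRR6ox replicates. The mean was 8.43 ± 0.28 in the wild type, against 7.58 ± 0.06 in OsRR6ox (SD, n = 2 each), a difference of -0.85 or 1.80-fold. Without wild type replicate 1 the difference was -0.65. Centring the arrays on the spike-in controls, under which the median difference of all probe sets was 0.49 in place of -0.04, gave -0.32, and the genotypes then overlapped.

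Of the 5 genes 4 had a higher mean in OsRR6ox. In 3, BHLH101, AT4G36700 and AT3G13610, the genotypes did not overlap, where 46.1% of all probe sets showed no overlap. Past the threshold of the genotype comparison (limma, Benjamini-Hochberg adjusted p under 0.05) were 0 of the 5. Of all 22746 probe sets 1.3% passed, 0.813% as higher and 0.488% as lower in OsRR6ox. An unadjusted p under 0.05 (limma) was found for 1 of the 5 and for 15.0% of all probe sets. Nothing is read from these counts, because the genotype difference was among the values that chose the genes. Wild type replicate 1 lay at least 1 log2 unit below all the other 3 arrays for 4 of the 5 genes, and for 34 probe sets in all, which is 0.149% of those tested. This too is the contrast that chose them. After spike-in centring the genotype differences of PYE and AT1G47400 were 1.17 and 2.28, and their arrays no longer overlapped between genotypes, while wild type replicate 1 remained the lowest array for both, by 0.94 for PYE and 3.25 for AT1G47400.

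**Figure D2:**
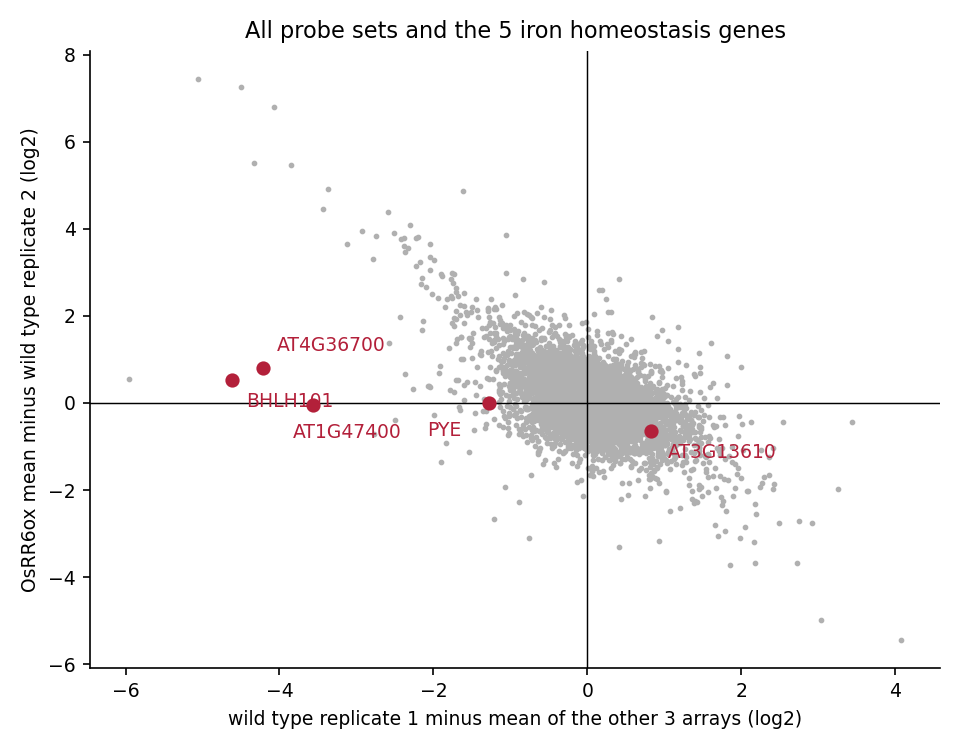
Wild type replicate 1 minus the mean of the other 3 arrays (horizontal axis, log2) against the OsRR6ox mean minus wild type replicate 2 (vertical axis, log2), 1 grey point for each probe set and red points for the 5 genes. The axes share arrays, so their slope is no result. BHLH101, AT4G36700 and AT1G47400 lie far left (-4.62, -4.22 and -3.56) at heights of 0.52, 0.81 and -0.04, and PYE lies left at 0.0019. AT3G13610 lies on the right (0.83) at a height of -0.65.

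The arrays as wholes were alike. Their medians lay between 6.71 and 6.81, and Pearson's r across probe sets, which are not independent replicates, was 0.989 between the wild type arrays, 0.992 between the OsRR6ox arrays and 0.976 to 0.980 between genotypes. The wild type replicates were at least 1 apart at 349 probe sets (1.53%) and the OsRR6ox replicates at 236 (1.04%). Wild type replicate 1 was thus set apart at few probe sets, lying at least 1 above all the other 3 arrays at 74 and below them at 34.

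Within the set of 34, ordered by the gap between wild type replicate 1 and the lowest other array, 4 probe sets had gaps above 3 and the next gap was 2.06. They were BHLH101 with 4.27, AT4G36700 with at least 3.68, AT1G47400 with 3.43 and a probe set without a gene name here with at least 5.59, which read 4.33 on wild type replicate 1 and 9.92, 10.14 and 10.80 on the others. AT4G36700 and the unnamed probe set lay at background on wild type replicate 1, so their gaps are lower bounds and their places among the 4 are not fixed. PYE stood at place 21 with 1.27. Of the 34 probe sets 17 carried a single gene. The other 17 had no single gene here, so whether any of them measures a listed iron gene could not be told. Beside the 4 iron homeostasis genes, 1 of the 17 single-gene probe sets was on the iron pathway lists, AT1G74770, entered among the iron regulators. It read 4.67 and 6.003 in wild type seedlings, against 5.83 and 6.53 in OsRR6ox, with a gap of 1.16. A second probe set of AT1G74770 lay at background on all 4 arrays and differed by 0.17 between genotypes. It read 3.51 and 3.98 in wild type seedlings, against 3.75 and 4.07 in OsRR6ox. Wild type replicate 1 was thus its lowest array, 0.42 below the mean of the others. At background, these values do not bear on the reading of the first probe set.

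**Figure D3:**
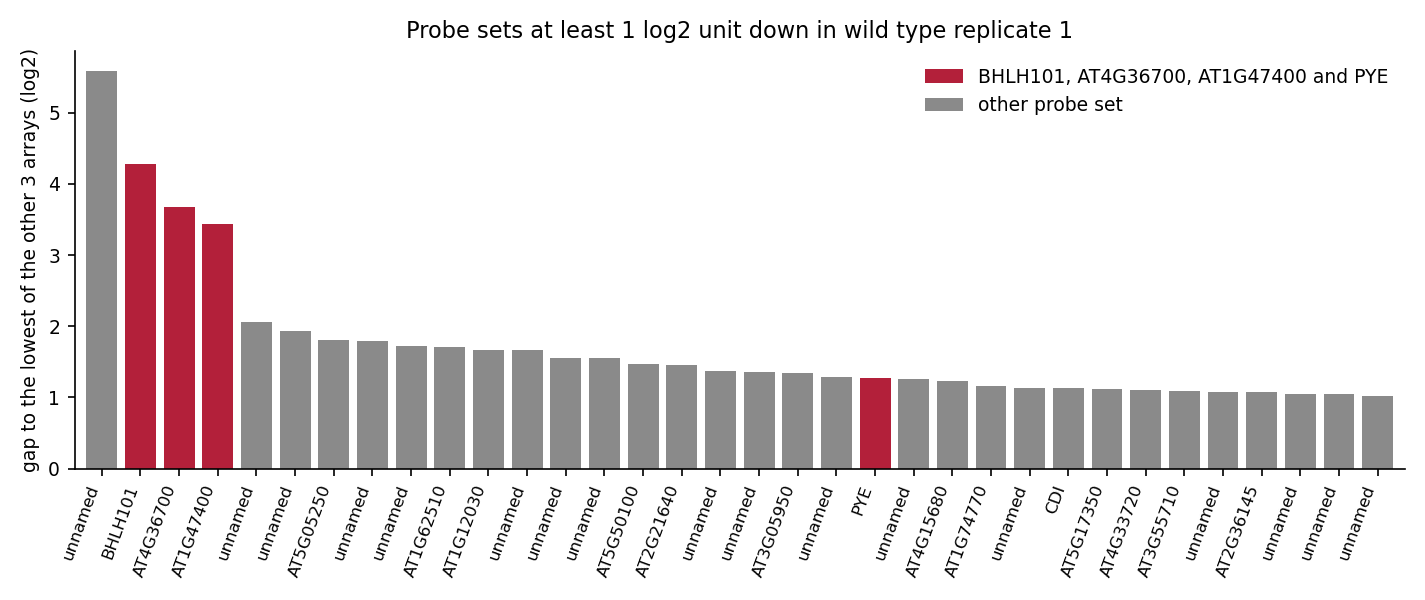
Gap between wild type replicate 1 and the lowest of the other 3 arrays (log2, vertical axis) for the 34 probe sets where it was at least 1, in falling order, with the iron homeostasis genes under study in red and all other probe sets in grey. BHLH101 (4.27), AT4G36700 (3.68, a lower bound) and AT1G47400 (3.43) are among the leading 4, and PYE is at place 21 with 1.27.

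The likeness of 2 genes over the arrays was measured as the root mean square distance between their log2 values after each gene's own mean over the 4 arrays was subtracted. The distance was taken against 13512 other probe sets with a single gene. BHLH101 and AT4G36700 were each other's nearest gene, 0.23 apart. AT1G47400 was next for both, 0.56 from BHLH101 and 0.55 from AT4G36700. The low value on wild type replicate 1, by which these members were chosen, weighs heavily in this distance. Their nearness to each other is therefore no separate result. The third gene nearest to BHLH101 and to AT4G36700 was AT1G12030, at distances of 0.96 and 0.78, which read 5.79 and 7.45 in wild type seedlings, against 8.59 and 9.06 in OsRR6ox. For AT1G47400 it was AT5G05250, at 0.67, which read 7.17 and 8.97 against 9.34 and 9.38. Both were low on wild type replicate 1, and both were also lower on wild type replicate 2 than on either OsRR6ox array.

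PYE, whose gap on wild type replicate 1 was smaller, lay 1.50 from BHLH101. Its nearest genes were AT4G15680 at 0.04, AT3G55710 at 0.07 and AT1G77030 at 0.11. AT4G15680 read 7.18 and 8.42 in wild type seedlings, against 8.49 and 8.51 in OsRR6ox, low on the same array by 1.29. AT3G13610 lay 2.42 from BHLH101 and was nearest to AT2G44670, AT2G17930 and AT1G51920, at 0.03, 0.04 and 0.04. These genes differed between genotypes by -0.81, -0.88 and -0.85. With 4 arrays many genes can share a pattern, and nothing follows from it about shared function.

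**Figure D4:**
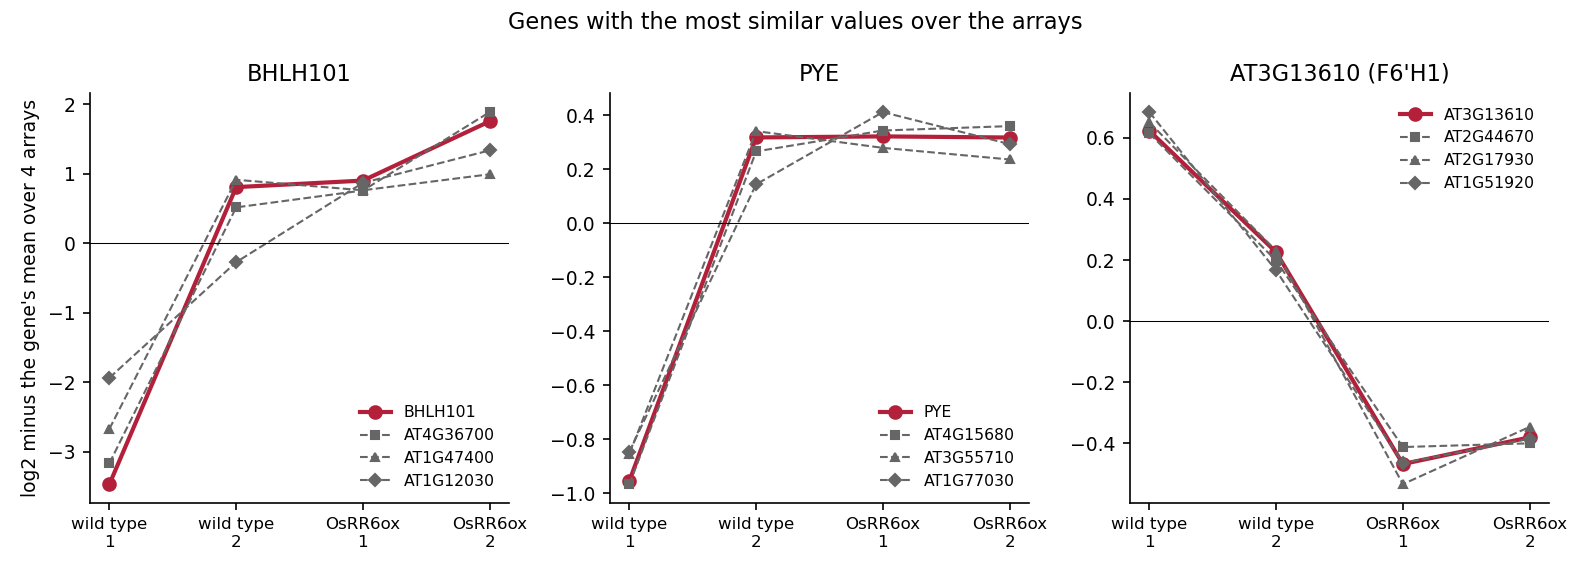
Values of BHLH101, PYE and AT3G13610 (red) and of the 3 nearest genes to each (grey) on the 4 arrays, as log2 minus each gene's mean over the arrays. Lines only join the values of 1 gene, since the arrays have no order. The genes beside BHLH101 and PYE are low on wild type replicate 1, and those beside AT3G13610 are lower on both OsRR6ox arrays.

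Genes beside the members on the chromosome were looked at for the same pattern. Of the 20 protein-coding genes within 2 places of a member, 10 had a probe set of their own. On 0 of these 10 was wild type replicate 1 at least 1 below the others. Over all probe sets the share was 0.149%, so a 0 among 10 does not set the neighbours apart. AT5G04160, next to BHLH101, read 8.01 and 7.86 in wild type seedlings, against 8.05 and 7.94 in OsRR6ox. AT1G47410, next to AT1G47400, read 5.81 and 5.96 against 6.48 and 6.19. Of the 10, 0 passed the genotype comparison (limma), where 1.3% of all probe sets did. An unadjusted p under 0.05 (limma) was found for 1, AT1G47410, and for 15.0% of all probe sets. Nothing about the neighbours is read from these counts.

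The rest of the iron pathway was taken from lists of 107 further genes, of which 22 had a probe set of their own. None of the transporters and reductases of uptake at the root surface (9 listed), of the genes for chelation and long-distance transport (12) or of the storage genes (10) was measured under a single gene name. Targets of the cascade within these groups were therefore not analysed here. Of the 22, 0 passed as higher and 0 as lower in OsRR6ox (limma, adjusted p under 0.05), against 1.3% of all probe sets. At an unadjusted p under 0.05 there were 3, or 13.6%, against 15.0% of all probe sets. The median difference was -0.08, beside -0.04 over all probe sets, and 15 of the 22 (68.2%) had a lower mean in OsRR6ox, beside 57.7% of all. With so few arrays, a lack of calls does not show that these genes were unchanged.

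Among regulators, 11 of 21 other listed genes were measured. The factors of subgroup IVc act above the subgroup Ib genes and PYE, and 4 of them were measured. bHLH104 read 7.43 and 7.53 in wild type seedlings, against 7.87 and 8.50 in OsRR6ox, a difference of 0.71 that did not pass (limma adjusted p = 0.263). bHLH115 read 9.37 and 9.45 against 9.03 and 9.14, a difference of -0.32, also short of the threshold (limma adjusted p = 0.329). ILR3 and bHLH34 differed by 0.10 and -0.02, and bHLH121, their partner, by 0.22. On wild type replicate 1 these 5 genes lay between 0.54 below and 0.16 above the mean of the other arrays, against 4.62 below for BHLH101. AT1G74770 (BTSL1) differed by 0.84 between genotypes (limma adjusted p = 0.495), and by 0.18 without wild type replicate 1. BTSL2 (AT1G18910) went the other way. It differed by -0.28 between genotypes, and wild type replicate 1 lay 0.46 above the mean of its other arrays. AT4G37850 lay at background on all 4 arrays and differed by 0.23.

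Of the 10 other genes listed for coumarin synthesis and export 5 were measured. In none of them did wild type replicate 1 lie 1 below the other arrays, as it did for 0.149% of all probe sets. BGLU42, a beta-glucosidase that releases coumarins from their glucosides, read 7.32 and 7.25 in wild type seedlings, against 7.64 and 7.68 in OsRR6ox. The difference of 0.37 did not overlap between genotypes, ran opposite to that of AT3G13610 and did not pass (limma adjusted p = 0.259). AT1G55290 (F6'H2), the close relative of F6'H1, read 5.96 and 6.12 against 5.99 and 5.97, so its genotypes overlapped where those of F6'H1 did not. The difference between the relatives was not tested. AT3G12900, at background on both OsRR6ox arrays, differed by -0.26, which is a bound, and PYK10, an abundant root beta-glucosidase, by -0.21, and AT1G28680 differed by 0.14 with overlapping arrays. HCT, of the general phenylpropanoid pathway that feeds coumarins and lignin, differed by -0.17 and was the single gene measured of 11.

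In the remaining lists CPNIFS, the plastid cysteine desulfurase of iron-sulfur cluster assembly, differed by -0.18 and the scaffold gene ISU1 by -0.03, which were 2 of 17 genes of organelle iron handling. For other metals 3 of 17 genes were measured. The zinc transporter gene ZIP9 differed by -0.20, AT3G58060, at background on all arrays, by -0.10, and CCS, the copper chaperone of superoxide dismutase, by -0.22. CCS read 7.35 and 8.18 in wild type seedlings, against 7.33 and 7.76 in OsRR6ox, low on wild type replicate 1 but equally low on OsRR6ox replicate 1. Its difference was -0.63 without wild type replicate 1.

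**Figure D5:**
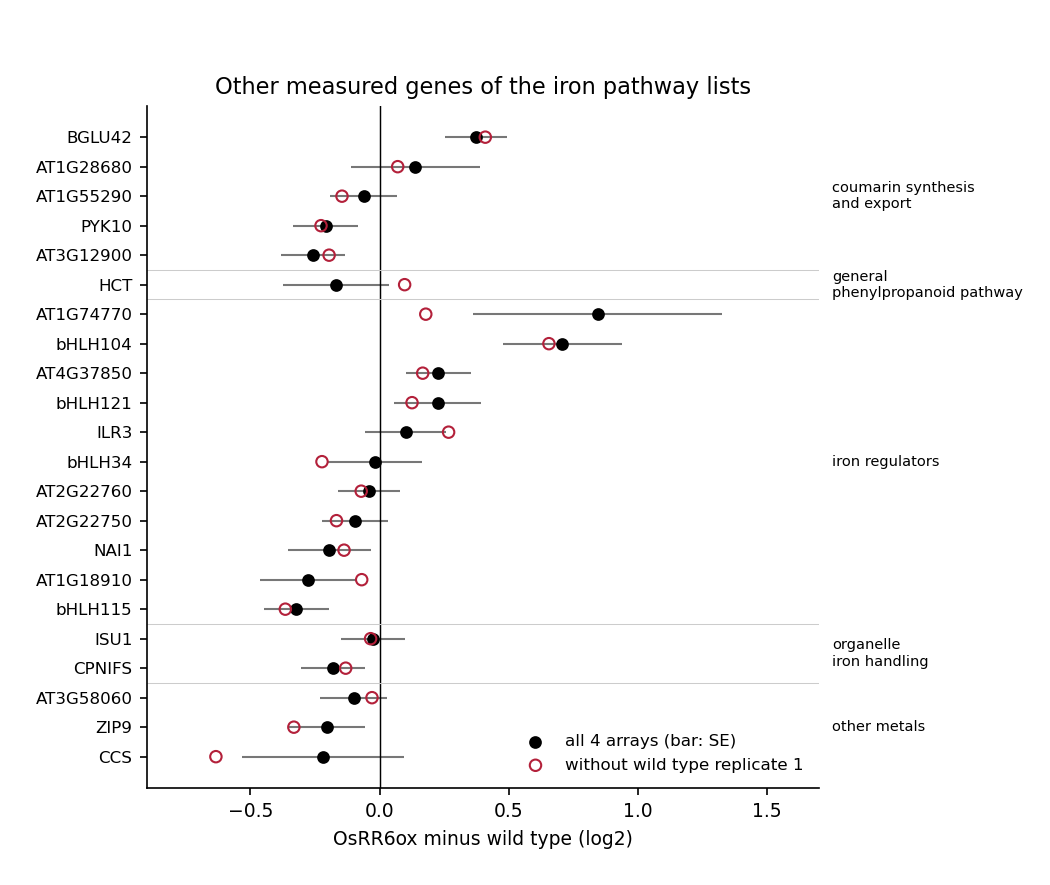
OsRR6ox minus wild type (log2, horizontal axis) for the 22 other measured genes of the iron pathway lists, as black points with the SE of the limma fit for 4 arrays and as red circles without wild type replicate 1. Most points lie near 0, and bHLH104 stays near 0.7 when that array is left out. AT1G74770 then moves from 0.84 to 0.18, and CCS moves away from 0, from -0.22 to -0.63.

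Roots carry most of the iron uptake machinery, and in a whole seedling fewer root cells and less RNA per cell cannot be told apart. Of 13 root markers 4 were measured, with mean log2 levels of 8.76 and 8.54 in wild type seedlings, against 9.16 and 9.20 in OsRR6ox. Their summed linear level, dominated by PYK10, ran from 8488 to 8608 in the wild type and from 7503 to 8175 in OsRR6ox. EXPA7, an expansin of root hair cells, read 7.18 and 6.96 in wild type seedlings, against 8.30 and 8.63 in OsRR6ox and rose by 1.39 (limma adjusted p = 0.0392). The other 3 root markers did not pass and were split in sign, with differences of 1.11 for EXPA18, -0.19 for NAI1 and -0.21 for PYK10. Of 12 leaf markers 4 were measured, with means of 12.04 and 12.30 against 12.00 and 12.13 and summed levels of 26157 to 30159 against 26368 to 30356. Their differences were split in sign. LHCB4.3, an antenna protein gene of photosystem II, read 10.17 and 10.44 in wild type seedlings, against 8.92 and 8.87 in OsRR6ox, and fell by 1.41 (limma adjusted p = 0.0257). The other 3 did not pass, with differences of 1.20 for LHCB4.2, 0.17 for LHCB4.1 and -0.38 for RCA. No marker of either list was at background on any array. None had wild type replicate 1 at least 1 below the others, where 0.149% of all probe sets did. The part of organ proportions in the values of the 5 genes was not tested.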

How the data were processed

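Total RNA of whole seedlings was labelled by the Affymetrix 3′ IVT method, per the labels' protocols. The authors deposited log2 expression values of 22810 probe sets on 4 arrays, and the submitters' processing notes name R 3.4.0. How the background was corrected and the arrays were summarised and normalized is not stated in the sources used here. The 64 control probe sets stayed out of the tests. Of the 22746 others, 13513 have a single gene, 503 several and 8730 none in the platform annotation, with symbols updated through the TAIR10.1 gene table (13436 matched).

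Genotypes were compared with limma 3.58.1 in R 4.3.3 (two-sided moderated test, Benjamini-Hochberg adjustment over 22746 probe sets, threshold 0.05), and the fit was tested on simulated data. There it recovered 3 of 67 changes of 1 log2 unit and 58 of 67 changes of 2, so changes of 1 or less would mostly be missed. The number of arrays limits the precision. A single array cannot be tested against 3, so wild type replicate 1 is described only. Where a listed gene has several probe sets, the brightest stands for it. The members and lists were chosen with earlier results of these data known. Named are the members, up to 4 genes per list with the smallest p, and the 3 genes nearest to each member. The unnamed probe set at the first place, the chromosomal neighbours, the genes named as partners or relatives and the organ markers were singled out after their values were seen. Alternatives were other scalings, variance models, a filter on dim probe sets, a looser threshold, the replicate number as a block and leaving out each array.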

Additional observations from a re-analysis of the deposited data

How the results depend on the processing

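The low values of BHLH101, PYE, AT1G47400 and AT4G36700 on wild type replicate 1 kept their direction under quantile normalization, median centring and spike-in centring, with differences from the other 3 arrays of -4.62 to -4.75 for BHLH101 and -1.27 to -1.40 for PYE. After spike-in centring PYE lay 0.94 below the nearest other array, so wild type replicate 1 was at least 1 below all others for 3 of the 5 genes in place of 4. The probe sets at least 1 below numbered 34 to 42 under these scalings, and 217 at a size of 0.5. Without wild type replicate 2, 4 of the 5 genes passed (limma), where 465 of 22746 probe sets did. That count is no evidence, because the genes were chosen for the low array that then alone stood for the wild type, and the spread came from the OsRR6ox pair. Without wild type replicate 1, 0 of the 5 passed, where 298 probe sets did. After spike-in centring the same count of 4 passed and 3 of the 22 other iron genes were called higher (bHLH104, AT1G74770 and BGLU42), with a median of 0.45, but 3013 probe sets were called in all, 2863 of them as higher, and the scaling itself moved the median of all probe sets. Over all probe sets 296 were called, against 492 after median centring, 673 at an adjusted p under 0.10 and between 45 and 465 when an array was left out. With an array left out, the median of the other iron genes ran from -0.0855 to -0.0182. The cause of these changes was not tested. The replicate number as a replicate block gave 105 calls, again with 0 of the 5 genes and 0 of the 22. The wild type and OsRR6ox replicates share a number only, and their differences correlated at 0.26 over probe sets. The planned promoter and protein descriptions were not run.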
